A study of Mus musculus with 16 samples.

Results

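This account covers 9 genes of glycogen synthesis and breakdown in the liver: Ugp2, Gyg, Gys2 and Gbe1 of the synthetic route, Pygl and Phka2 of breakdown, and Ppp1r3b, Ppp1r3c and Ppp1r3g, whose proteins bring protein phosphatase 1 to glycogen. They were selected by symbol, as the rows of both count tables whose Ensembl identifier maps to these names, and all 9 were found among the 23167 identifiers that the male and female tables share. The genes were measured in livers of 16 mice by sequencing of polyadenylated RNA. All 16 mice carried floxed alleles of Matr3, which encodes matrin-3, a nuclear RNA-binding protein. The LKO groups also carried Albumin-Cre, a recombinase driven by the albumin promoter and therefore directed to hepatocytes, and the floxed groups did not. There were 4 male floxed mice (numbered 1 to 4), 4 male LKO mice (5 to 8), 4 female floxed mice (1 to 4) and 4 female LKO mice (5 to 8), with 1 library each. All of them received a diet with 60% of its energy as fat from 7 weeks of age for 16 weeks and were fasted for 12 hours before tissue was taken. No group on chow and no fed group was among the libraries used here.

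Glycogen is the branched glucose polymer in which the liver stores sugar after a meal and from which it releases glucose during a fast. UDP-glucose pyrophosphorylase makes the activated sugar, glycogenin primes the chain, glycogen synthase lengthens it and the branching enzyme adds branch points. Phosphorylase, which phosphorylase kinase switches on, shortens the chains again, and protein phosphatase 1 reverses that switch and activates the synthase when one of its targeting subunits holds it on the glycogen particle.

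Library totals, as sums over the gene tables, ran from 30495505 to 36496193 counts. Values below are CPM, counts scaled to the size of the library after TMM scaling of all 16 libraries together, and levels of different genes are compared only as CPM per kilobase of exon. Matr3 lay at 53.6 to 61.7 CPM in floxed and 34.0 to 36.9 CPM in LKO males, and at 52.4 to 64.0 CPM in floxed and 36.6 to 39.8 CPM in LKO females, so each library matched its label. Counts per gene cannot separate the deleted exons from the rest. Marker genes of hepatocytes were abundant in all 16 libraries, and their 10-gene sum was 68994 to 78898 CPM in floxed females against 41504 to 61162 CPM in LKO females, with Alb and Ttr called lower and Tat and Hnf4a called higher. Of 9 sinusoidal endothelial markers 5 were called lower in LKO females, their sum being 262 to 282 CPM in floxed and 195 to 243 CPM in LKO libraries. Of 9 stellate cell and fibroblast markers 2 were called lower there, Lrat and Reln, and the sum was 367 to 453 CPM in floxed and 333 to 361 CPM in LKO females. Of 10 Kupffer cell and macrophage markers and 6 neutrophil markers tested 0 were called in females, with all log2 differences above 0. Of 5 cholangiocyte markers tested 1, Epcam, was called lower in females, with all 5 below 0. Of all genes tested 4.85% were called lower and 4.44% higher in females. In males 0 markers of these lists were called, with all 9 endothelial markers above 0. Adipocyte markers summed to 9.67 to 26.2 CPM in floxed and 31.2 to 66.7 CPM in LKO males, with 0 called. The part of these shifts in the values of the glycogen genes was not tested, and in whole liver fewer cells of a type and less RNA per cell cannot be told apart. Markers of skeletal muscle, which has glycogen enzymes of its own, summed to 4.53 CPM at most. Female floxed 4 and female LKO 7 were known from earlier results to lie nearest to the other genotype, and male floxed 1 and 2 bear mouse numbers far from those of the other animals, which makes them the nearest thing to a batch that the labels show. Calls of the 9 genes that change without either pair are given both ways.

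The DNA just before the transcription start is shown for the 4 genes whose call in females is reported below and for Pygl, which missed it. RefSeq promoter entries (GRCm38.p6) matched 7 of the 9 genes, with 8 windows because Ugp2 has a pair of starts. Each line gives the 250 bases before the start, 5′ to 3′ on the strand of the gene, and capitals mark a GC box or a CCAAT box read on either strand. The windows are chr16:70313699-70313948 on the plus strand for Gbe1, chr11:21371268-21371517 on the minus strand for the upstream start of Ugp2, chrX:160501912-160502161 on the plus strand for Phka2, chr13:35967656-35967905 on the plus strand for Ppp1r3g and chr12:70227684-70227933 on the minus strand for Pygl. The windows of Ppp1r3g and Pygl lie inside the spans that GENCODE gives these genes.
Gbe1: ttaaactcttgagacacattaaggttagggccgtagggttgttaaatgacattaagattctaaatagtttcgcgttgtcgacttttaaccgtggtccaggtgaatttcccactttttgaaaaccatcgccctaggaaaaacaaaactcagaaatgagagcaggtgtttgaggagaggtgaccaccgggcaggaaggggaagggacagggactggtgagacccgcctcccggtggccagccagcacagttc
Ugp2: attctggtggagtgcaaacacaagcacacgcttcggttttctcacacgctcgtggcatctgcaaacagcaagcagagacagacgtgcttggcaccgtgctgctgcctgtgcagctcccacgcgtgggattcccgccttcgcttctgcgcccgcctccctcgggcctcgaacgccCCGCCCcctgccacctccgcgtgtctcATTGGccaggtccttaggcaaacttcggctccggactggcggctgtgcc
Phka2: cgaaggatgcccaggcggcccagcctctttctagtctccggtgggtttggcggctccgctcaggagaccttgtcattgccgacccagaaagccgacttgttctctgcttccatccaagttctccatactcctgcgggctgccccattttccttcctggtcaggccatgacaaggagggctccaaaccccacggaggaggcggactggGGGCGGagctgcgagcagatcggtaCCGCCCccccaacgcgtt
Ppp1r3g: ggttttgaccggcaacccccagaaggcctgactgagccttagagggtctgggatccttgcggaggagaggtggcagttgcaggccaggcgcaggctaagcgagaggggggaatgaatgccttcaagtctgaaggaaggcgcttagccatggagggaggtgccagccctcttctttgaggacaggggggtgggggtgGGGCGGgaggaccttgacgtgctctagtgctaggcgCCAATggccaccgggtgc
Pygl: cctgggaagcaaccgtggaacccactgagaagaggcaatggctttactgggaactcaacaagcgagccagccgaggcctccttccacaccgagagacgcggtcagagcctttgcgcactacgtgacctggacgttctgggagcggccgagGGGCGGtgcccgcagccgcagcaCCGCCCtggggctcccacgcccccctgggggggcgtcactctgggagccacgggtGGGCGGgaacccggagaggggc

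The searched motifs were the GC box GGGCGG (found in 32.7% of all 32851 RefSeq windows of that length), the CCAAT box CCAAT (33.8%), the TATA box TATAAA (12.4%), the E-box CACGTG (6.02%), the cyclic AMP response element TGACGTCA (1.55%), the forkhead site TGTTTAC (3.17%), the STAT site TTCNNNGAA (7.02%) and the glucocorticoid receptor site GNACA and TGTNC with 3 bases between them (0.387%), each on both strands. The window of Gbe1 held none of these 8 motifs and had a GC content of 48.8%, against a median of 52.4% over all windows. The window of Ugp2 held a GC box 76 bases and a CCAAT box 49 bases before the start, and that of Ppp1r3g held the same pair of motifs at 54 and 18 bases. Phka2 had GC boxes at 43 and 18 bases before the start, and Pygl had 3 GC boxes, at 100, 77 and 22 bases. Among the windows not printed, that of Ppp1r3c held an E-box 104 bases before the start. A match of letters is a description of the window and not a binding site. The 3 genes that were lower in LKO females, Gbe1, Ugp2 and Phka2, had no motif common to all of their windows.

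The first question was whether loss of Matr3 in hepatocytes went with other levels of these transcripts in each sex. In females, 4 of the 9 genes passed an edgeR adjusted p of 0.05, against a background of 9.29% of 15432 genes tested. Gbe1, Ugp2 and Phka2 fell in LKO females (4.85% of all genes tested were called lower) and Ppp1r3g rose (4.44% were called higher). The libraries of the floxed and LKO groups did not overlap for 5 of the 9 genes (15.9% of all genes tested), these 4 and Pygl. Ppp1r3g was the gene with every LKO library higher (7.61% of all genes), and the other 4 had every LKO library lower (8.31%). The median log2 difference of the 9 was -0.46, and that of all genes tested was 0.00. In males, 0 of the 9 genes passed, with 1.04% of 15355 genes as background, 0.528% called higher and 0.514% called lower. The edgeR test gave an unadjusted p under 0.05 for 2 of them in males, Gys2 and Gbe1. DESeq2, which called 518 of the 15355 genes, called the same pair, and limma-voom, which called 155, called 0 of the 9. These 2 genes were also the ones without overlap between male floxed and LKO libraries (8.14% of all genes tested), both with every LKO library higher (3.96% of all genes), while 0 of the 9 had every LKO library lower (4.18%). The median log2 difference of the 9 in males was 0.18, against -0.01 for all genes tested.

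**Figure D1:**
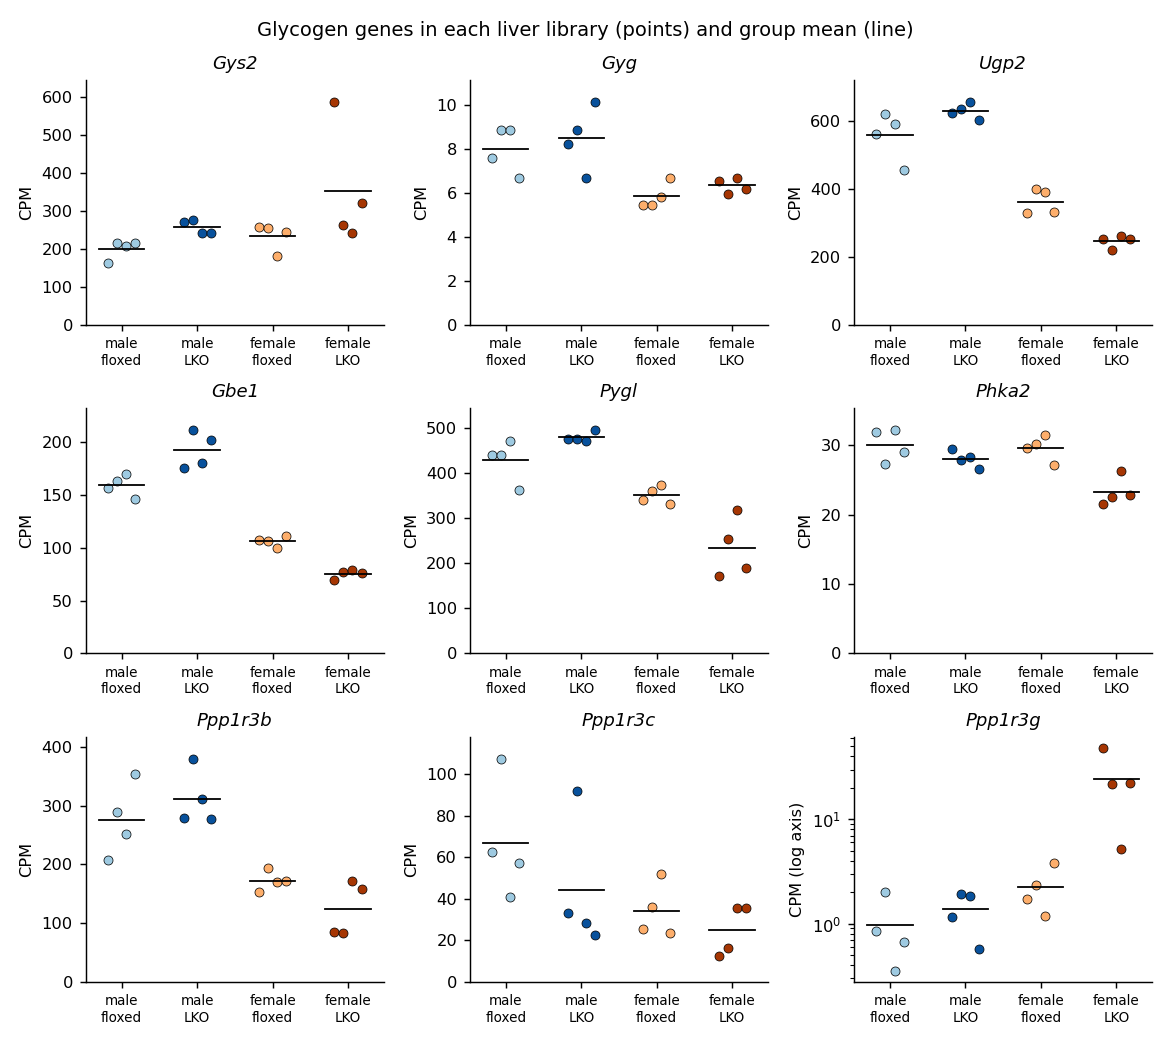
TMM-scaled CPM of each of the 9 genes in each of the 16 libraries, by sex and genotype, with the bar of each group at its mean; the panel of Ppp1r3g has a log axis. Gbe1 and Ugp2 lay lower in each female LKO library than in each female floxed library, and Ppp1r3g lay at 5.21 to 48.4 CPM in LKO females against 1.18 to 3.82 CPM in floxed females.

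Among the genes of the synthetic route, Ugp2 (ENSMUSG00000001891; mm10 chr11:21321138-21371201, minus strand), which encodes UDP-glucose pyrophosphorylase, had the highest level per kilobase in floxed livers of both sexes. It measured 328, 400, 389 and 332 CPM in floxed females 1 to 4 and 253, 219, 260 and 253 CPM in LKO females 5 to 8. Every LKO female lay below every floxed female. The means were 362 ± 37.5 and 246 ± 18.5 CPM (SD, n = 4 each), a log2 difference of -0.56 (SE 0.10, edgeR adjusted p = 0.0120). The fall of 1.47-fold kept its call without any 1 of the 8 female libraries. In males Ugp2 measured 562, 619, 591 and 456 CPM in floxed and 622, 635, 655 and 603 CPM in LKO libraries. The male groups overlapped, with a log2 difference of 0.18 (SE 0.09, edgeR adjusted p = 0.474). A gene within the span of Ugp2, Gm12043, had 712 counts in all 16 libraries together.

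Gbe1 (ENSMUSG00000022707; chr16:70313949-70569716, plus strand) encodes the branching enzyme, without which glycogen has long, poorly soluble chains. Floxed females had 107, 106, 99.5 and 111 CPM and LKO females had 69.6, 77.3, 78.6 and 76.5 CPM. The groups were well apart, at 106 ± 4.72 and 75.5 ± 4.05 CPM (SD, n = 4 each). The log2 difference was -0.49 (SE 0.07, edgeR adjusted p = 0.00691), a level 1.41-fold lower, and it passed the threshold without any 1 of the 8 libraries, with edgeR adjusted p up to 0.0268. Floxed males had 157, 164, 170 and 146 CPM and LKO males had 175, 211, 181 and 202 CPM. In males every LKO library was above every floxed library, and the log2 difference of 0.27 (SE 0.08) had an edgeR adjusted p of 0.149 and a DESeq2 adjusted p of 0.0379. With 1 male library omitted the edgeR adjusted p ran from 0.156 to 0.368.

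Gys2 (ENSMUSG00000030244; chr6:142422613-142473109, minus strand) encodes the liver isoform of glycogen synthase, the enzyme that adds glucose units to the growing chain. Floxed females had 258, 255, 182 and 244 CPM and LKO females had 586, 263, 241 and 320 CPM. LKO 5 stood at more than the level of any other of the 16 libraries, and the lowest LKO female lay within the range of the floxed females. The means of 235 ± 35.9 and 352 ± 159 CPM (SD, n = 4 each) differed by 0.58 on the log2 scale (SE 0.26), which did not pass (edgeR adjusted p = 0.177). Without LKO 5 the log2 difference was 0.23. In males the floxed libraries had 164, 216, 206 and 215 CPM and the LKO libraries 271, 276, 242 and 242 CPM. Each LKO male was above each floxed male. The male log2 difference of 0.36 (SE 0.09) had an edgeR adjusted p of 0.116 and a DESeq2 adjusted p of 0.0176. Over the alternatives other than omission of 1 library the male adjusted p lay between 0.0176 and 0.639.

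Gyg (ENSMUSG00000019528; chr3:20122084-20155317, minus strand) encodes glycogenin, the self-glucosylating primer on which a chain is started. It had the lowest or next to lowest level per kilobase in each of the 4 groups. Floxed and LKO means were 7.97 ± 1.06 and 8.47 ± 1.43 CPM in males and 5.84 ± 0.591 and 6.33 ± 0.323 CPM in females (SD, n = 4 each). The log2 differences were 0.09 (SE 0.14, edgeR adjusted p = 0.871) in males and 0.11 (SE 0.11, edgeR adjusted p = 0.548) in females, both within the spread between libraries.

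Of the genes of breakdown, Pygl (ENSMUSG00000021069; chr12:70190811-70231488, minus strand) encodes liver glycogen phosphorylase, which releases glucose 1-phosphate from the chain ends. Floxed females had 340, 361, 374 and 331 CPM and LKO females had 171, 255, 319 and 190 CPM. All LKO females lay below all floxed females, but LKO 7 at 319 CPM came close to the lowest floxed library, 331 CPM. The means were 351 ± 19.7 and 234 ± 67.1 CPM (SD, n = 4 each), a log2 difference of -0.59 (SE 0.17) that missed the threshold (edgeR adjusted p = 0.0615). Without LKO 7 it was -0.77 (edgeR adjusted p = 0.00684), and without floxed 4 and LKO 7 together it was -0.80 (edgeR adjusted p = 0.00735). These libraries were picked as those nearest to the other genotype, so their omission favours a larger difference. Both omissions raised the calls over all genes, from 1433 of 15432 to 2300 of 15689 and 3028 of 15457. The fit of all 16 libraries and DESeq2 gave adjusted p of 0.0120 and 0.0134, and also called more of all genes, 2854 of 16126 and 2415 of 15432. Over the omissions of 1 library the edgeR adjusted p ran from 0.00684 to 0.140. In males Pygl had 441, 440, 472 and 362 CPM in floxed and 475, 477, 472 and 495 CPM in LKO libraries. Male groups differed by 0.16 on the log2 scale (SE 0.08, edgeR adjusted p = 0.453).

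Phka2 (ENSMUSG00000031295; chrX:160502166-160598878, plus strand) encodes the liver form of the regulatory alpha subunit of phosphorylase kinase. It had 29.6, 30.2, 31.5 and 27.2 CPM in floxed and 21.5, 22.6, 26.3 and 22.8 CPM in LKO females. No LKO female reached the lowest floxed female, but LKO 7 at 26.3 CPM was close to floxed 4 at 27.2 CPM. The means were 29.6 ± 1.79 and 23.3 ± 2.10 CPM (SD, n = 4 each), and the log2 difference was -0.35 (SE 0.08, edgeR adjusted p = 0.0306), a 1.27-fold fall. The call was lost without floxed 1, 2 or 3 or without LKO 5, 6 or 8, at edgeR adjusted p of 0.0763 to 0.0963, and kept without floxed 4 or LKO 7. In males Phka2 had 31.9, 27.4, 32.1 and 29.0 CPM in floxed and 29.4, 27.9, 28.2 and 26.6 CPM in LKO libraries, an overlapping pair of groups (log2 difference -0.10, SE 0.07, edgeR adjusted p = 0.605).

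Of the targeting subunits of protein phosphatase 1, Ppp1r3c and Ppp1r3g had the widest relative spread within each of the 4 groups among the 9 genes. Ppp1r3g (ENSMUSG00000050423; chr13:35958839-35970388, plus strand) encodes a glycogen-targeting subunit. A gene that overlaps it, Gm30127, was not among the identifiers that both tables share, so its reads could not be compared. Floxed females had 1.73, 2.33, 1.18 and 3.82 CPM, from 56, 80, 38 and 124 counts. LKO females had 48.4, 21.9, 5.21 and 22.4 CPM, from 1568, 687, 175 and 734 counts. All 4 LKO females exceeded all 4 floxed females, and within the LKO group LKO 5 was highest and LKO 7 lowest. The mean was 2.27 ± 1.14 CPM in floxed and 24.5 ± 17.9 CPM in LKO females (SD, n = 4 each), a rise of 3.43 on the log2 scale (SE 0.60, edgeR adjusted p = 0.0116), or 10.8-fold. The difference lay between 2.86 and 3.80 when any 1 of the 8 libraries was omitted and was called each time, with edgeR adjusted p up to 0.0491, whereas limma-voom gave an adjusted p of 0.0566. In males the gene was low throughout, at 0.859, 2.03, 0.356 and 0.665 CPM in floxed and 1.16, 1.93, 1.86 and 0.577 CPM in LKO libraries. These values came from 12 to 66 counts a library and overlapped between the groups, with a log2 difference of 0.49 (SE 0.51, edgeR adjusted p = 0.765).

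Ppp1r3b (ENSMUSG00000046794; chr8:35375739-35388139, plus strand) encodes the targeting subunit best known from liver. It had 152, 194, 170 and 172 CPM in floxed females and 84.1, 83.6, 171 and 158 CPM in LKO females. The LKO females split, with LKO 5 and 6 below all floxed libraries and LKO 7 and 8 among them. The log2 difference of -0.48 (SE 0.23) did not pass (edgeR adjusted p = 0.210). Floxed males had 207, 290, 251 and 354 CPM and LKO males had 279, 380, 311 and 278 CPM, with overlap and a log2 difference of 0.18 (SE 0.16, edgeR adjusted p = 0.708).

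Ppp1r3c (ENSMUSG00000067279; chr19:36731731-36736653, minus strand) encodes a further glycogen-targeting subunit, also called PTG. It ranged from 23.4 to 52.0 CPM in floxed and from 12.3 to 35.5 CPM in LKO females. In males it ranged from 40.7 to 107 CPM in floxed libraries, and LKO males had 33.3, 91.8, 28.2 and 22.4 CPM, LKO 6 standing apart. The groups overlapped in both sexes. The log2 differences were -0.46 (SE 0.36, edgeR adjusted p = 0.440) in females and -0.61 (SE 0.43, edgeR adjusted p = 0.628) in males.

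**Figure D2:**
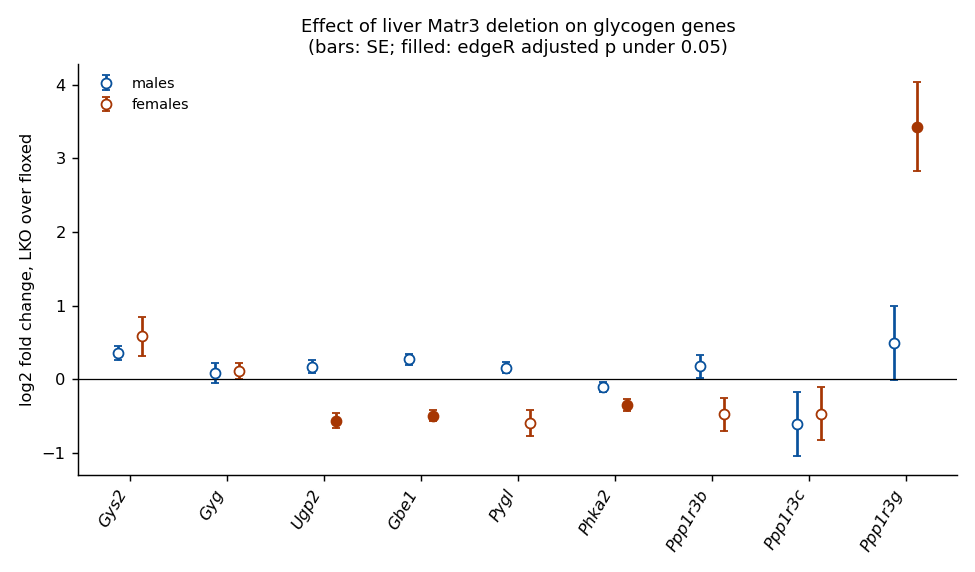
Log2 difference, LKO over floxed, of each of the 9 genes in males and in females from the edgeR fits of each sex, with bars of 1 SE and filled points for an adjusted p under 0.05. Gbe1 is at 0.27 in males and -0.49 in females, Ugp2 at 0.18 and -0.56, Pygl at 0.16 and -0.59, and no male point is filled.

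Whether the effect of LKO differed between the sexes was tested in the fit of all 16 libraries, as the female log2 difference minus the male one. Of the 9 genes 3 passed, all with the female difference the lower, against 4.42% of 16126 genes tested in either direction and 2.45% in this one. Gbe1 differed by -0.76 (SE 0.10, edgeR adjusted p = 0.00235) and Ugp2 by -0.73 (SE 0.14, edgeR adjusted p = 0.0104), and both calls held without any 1 of the 16 libraries. In both genes the male log2 difference, 0.27 and 0.18, was above 0 and not called. Pygl differed by -0.75 (SE 0.21) at an edgeR adjusted p of 0.0488, and this call was kept only without female floxed 4 or female LKO 7 and lost without each of the other 14 libraries, at adjusted p of 0.0521 to 0.0874. It was also lost without male floxed 1 and 2 together (edgeR adjusted p = 0.121).

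For Ppp1r3g the difference of the effects was 2.94 (SE 0.89) and missed the threshold (edgeR adjusted p = 0.0677). It passed without female floxed 4 (3.31, edgeR adjusted p = 0.0426), without female LKO 7 (3.27, edgeR adjusted p = 0.00932) and with DESeq2 (2.93, adjusted p = 0.0239), and over the omissions of 1 library the adjusted p ran from 0.00932 to 0.211. A difference between the sexes in Ppp1r3g was therefore not shown. The remaining differences were -0.24 for Phka2 (edgeR adjusted p = 0.205), -0.65 for Ppp1r3b (0.240), 0.22 for Gys2 (0.729), 0.15 for Ppp1r3c (0.928) and 0.03 for Gyg (0.952). Without female floxed 4 and LKO 7 together 5 of the 9 passed, Phka2 and Ppp1r3g being added to Gbe1, Ugp2 and Pygl, but that omission also raised the calls over all genes, from 713 of 16126 to 2030 of 16268.

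The mean effect over both sexes passed for 2 of the 9 genes, with 8.55% of 16126 genes as background, 4.05% called higher and 4.5% called lower. Ppp1r3g was higher by 1.96 on the log2 scale (SE 0.44, edgeR adjusted p = 0.0128), and limma-voom gave 1.88 with an adjusted p of 0.140. Phka2 was lower, with a log2 difference of -0.22 (SE 0.05, edgeR adjusted p = 0.0167). Both were called without any 1 of the 16 libraries. Gys2 had a log2 difference of 0.47 (SE 0.15) and an edgeR adjusted p of 0.0615. It passed without female LKO 6 (edgeR adjusted p = 0.0428), without female LKO 7 (0.0169) and with DESeq2 (0.0188), and over the omissions of 1 library the adjusted p ran from 0.0169 to 0.118. Pygl, at -0.21 (edgeR adjusted p = 0.212), passed without female LKO 7 (-0.31, edgeR adjusted p = 0.0183), and Ugp2, at -0.19 (edgeR adjusted p = 0.0934), passed without male floxed 4 (-0.23, edgeR adjusted p = 0.0314). Without female floxed 4 and LKO 7 together Gys2 and Pygl joined Ppp1r3g and Phka2, 4 of the 9, while the calls over all genes went from 1379 of 16126 to 2902 of 16268.

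The floxed mice of the sexes were also compared, to give the level of the pathway without the deletion. These tests use the same floxed libraries as those above, so that they are not independent of them. Each sex came as its own table of counts, so sex and any difference in handling between the tables cannot be told apart. In floxed females 4 of the 9 genes were lower than in floxed males and 0 were higher, against 22.9% of 16126 genes called in either direction, 11.6% lower and 11.3% higher. The 9 genes had a median log2 difference of -0.45, and all genes tested had one of 0.00. Gbe1 was 1.50-fold lower (log2 -0.59, SE 0.07, edgeR adjusted p = 4.07e-05) and Ugp2 1.54-fold lower (log2 -0.62, SE 0.10, edgeR adjusted p = 0.000344), each called without any 1 of the 8 floxed libraries. No floxed female reached the lowest floxed male for these 2 genes or for Ppp1r3b, 3 of the 9 (24.2% of all genes tested did not overlap, 12.4% with every female library lower). Ppp1r3b differed by -0.68 (SE 0.22, edgeR adjusted p = 0.0324), a call lost without male floxed 2 or 4 or female floxed 1, 3 or 4, at adjusted p of 0.0595 to 0.103. Gyg differed by -0.45 (SE 0.13, edgeR adjusted p = 0.0178), and lost its call without male floxed 2 (0.0534) or 3 (0.0569), and without male floxed 1 and 2 together (0.0974). Of the other 5 genes, Ppp1r3c had a log2 difference of -0.97 (edgeR adjusted p = 0.129), Ppp1r3g 1.22 (0.192), Pygl -0.29 (0.166), Gys2 0.23 (0.472) and Phka2 -0.02 (0.858). Markers of Kupffer cells summed to 293 to 470 CPM in floxed males and 845 to 1267 CPM in floxed females, with 9 of 10 called higher. Of 6 neutrophil markers tested 5 were called higher, and of 9 stellate cell and fibroblast markers 3 were called lower. What part these marker differences have in the glycogen genes was not tested.

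In level per kilobase of exon, the order in floxed males was Ugp2 with 181 CPM per kilobase, Gys2 with 75.4, Pygl with 62.2, Ppp1r3b with 44.3, Gbe1 with 29.7, Ppp1r3c with 24.5, Phka2 with 4.96, Gyg with 3.40 and Ppp1r3g with 0.363. LKO males and floxed females had the same order. Neighbours in this order were not always apart: the ranges of Gys2 and Pygl and of Pygl and Ppp1r3b overlapped in floxed males, as did those of Gbe1 and Ppp1r3c. In LKO females Gys2 was first with 133 CPM per kilobase, ahead of Ugp2 with 80.2 and Pygl with 33.9, and Ppp1r3g with 9.09 stood beside Ppp1r3c with 9.11, followed in the order of means by Phka2 with 3.84 and Gyg with 2.70. In LKO 7 Ppp1r3g had 1.94 CPM per kilobase, below Phka2 and Gyg, so that its range overlapped with those of Ppp1r3c, Phka2 and Gyg, as did those of Pygl and Ppp1r3b and of Ppp1r3b and Gbe1. In that group Gys2 ranged from 90.7 to 220 CPM per kilobase and Ugp2 from 71.3 to 84.7. Lengths are those of merged exons, so a gene with an unused long exon is placed too low.

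The ratio of synthase to phosphorylase transcripts needs no scaling between libraries and was taken within each library, as Gys2 over Pygl per kilobase. Floxed males had ratios of 0.963, 1.28, 1.13 and 1.54, and LKO males had 1.48, 1.50, 1.33 and 1.27. These overlapped, and the geometric means of 1.21 and 1.39 differed 1.15-fold (exact permutation test, two-sided, p = 0.286, adjusted over both sexes 0.286). Floxed females had 1.97, 1.83, 1.26 and 1.91, and LKO females had 8.87, 2.68, 1.96 and 4.36. LKO 7 lay within the floxed range and LKO 5 far above the rest. The geometric means of 1.72 and 3.77 differed 2.20-fold (exact permutation test, two-sided, p = 0.0571, adjusted 0.114), which did not pass. The smallest p that 70 regroupings of 4 and 4 libraries allow is 0.0286. Without LKO 5 the female difference fell from 1.14 to 0.72 on the log2 scale.

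**Figure D3:**
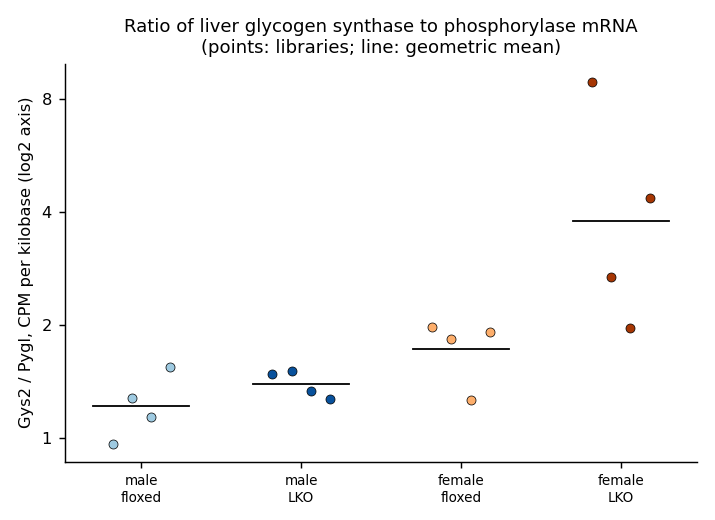
Ratio of Gys2 to Pygl, each per kilobase, in each of the 16 libraries on a log axis, with the geometric mean of each group as a bar. LKO females spread from 1.96 to 8.87, while the other 12 libraries lie between 0.963 and 1.97.

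The makeup of the targeting subunits is given as the share of each in the summed CPM per kilobase of Ppp1r3a to Ppp1r3g in a library. Ppp1r3b made up 61.7% ± 9.12 in floxed males, 72.8% ± 7.83 in LKO males, 62.6% ± 5.12 in floxed females and 47.8% ± 10.9 in LKO females (SD, n = 4 each). Ppp1r3g made up 0.476% ± 0.276, 0.718% ± 0.280, 1.94% ± 1.08 and 23.6% ± 17.7 in the same groups. In LKO females 5 to 8 its share was 46.3%, 26.8%, 4.25% and 16.9%, so that in LKO 5 it exceeded the share of Ppp1r3b, 34.8%, and in LKO 7 it was near the 3.45% of floxed female 4. The summed level was 44.5 ± 5.47 CPM per kilobase in floxed and 41.0 ± 8.24 in LKO females. In males it was 72.3 ± 15.5 in floxed and 70.5 ± 19.5 in LKO livers. These shares are a description and were not tested.

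**Figure D4:**
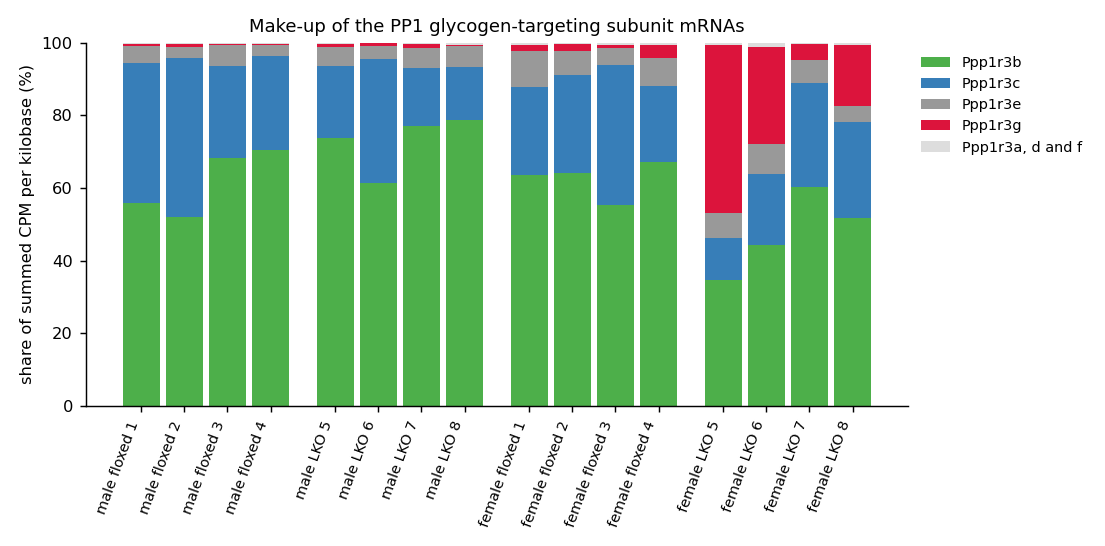
Share of each targeting subunit in the summed CPM per kilobase of Ppp1r3a to Ppp1r3g, as 1 stacked bar per library. Ppp1r3b takes the largest share in 15 of the 16 libraries, and Ppp1r3g takes 46.3% in female LKO 5 and 4.25% in female LKO 7.

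Of 23 further genes of glycogen metabolism (the muscle and brain isoforms of synthase and phosphorylase, the debranching enzyme, the acid glucosidase of lysosomes, phosphoglucomutases, the other phosphorylase kinase and phosphatase subunits, and the glycogen-quality and synthase-kinase genes), 21 passed the filter on low counts, and Phkg1 and Ppp1r3a did not. In females 1 of the 21 was lower and 0 were higher, a share near that of all genes tested (4.85% lower, 4.44% higher). In males 0 were called by edgeR (1.04% of all genes), with 0 at an unadjusted p under 0.05 and 0 by DESeq2 or limma-voom. Their median log2 difference was 0.02 in females and 0.08 in males. The gene called was Epm2a, which encodes laforin, a phosphatase that removes phosphate from glycogen. It had 9.84, 11.0, 12.6 and 7.46 CPM in floxed females and 6.67, 7.39, 7.06 and 6.72 CPM in LKO females. All LKO females lay below all floxed females (8.31% of all genes tested), with LKO 6 just under floxed 4. The log2 difference was -0.55 (SE 0.15, edgeR adjusted p = 0.0449), and the call held only without floxed 4 and was lost without each of the other 7 libraries, at adjusted p of 0.0530 to 0.122, and with limma-voom (0.0603). In males Epm2a had 10.5, 11.1, 11.6 and 11.6 CPM in floxed and 13.1, 12.7, 11.9 and 11.8 CPM in LKO libraries. Every LKO male lay above every floxed male (3.96% of all genes tested), and the log2 difference was 0.14 (edgeR adjusted p = 0.480). The difference of the effects was -0.69 (SE 0.17, edgeR adjusted p = 0.0270), lost without male floxed 1, male LKO 5, female floxed 2 or female LKO 5, at adjusted p of 0.0520 to 0.0588, and without male floxed 1 and 2 together (0.116).

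**Figure D5:**
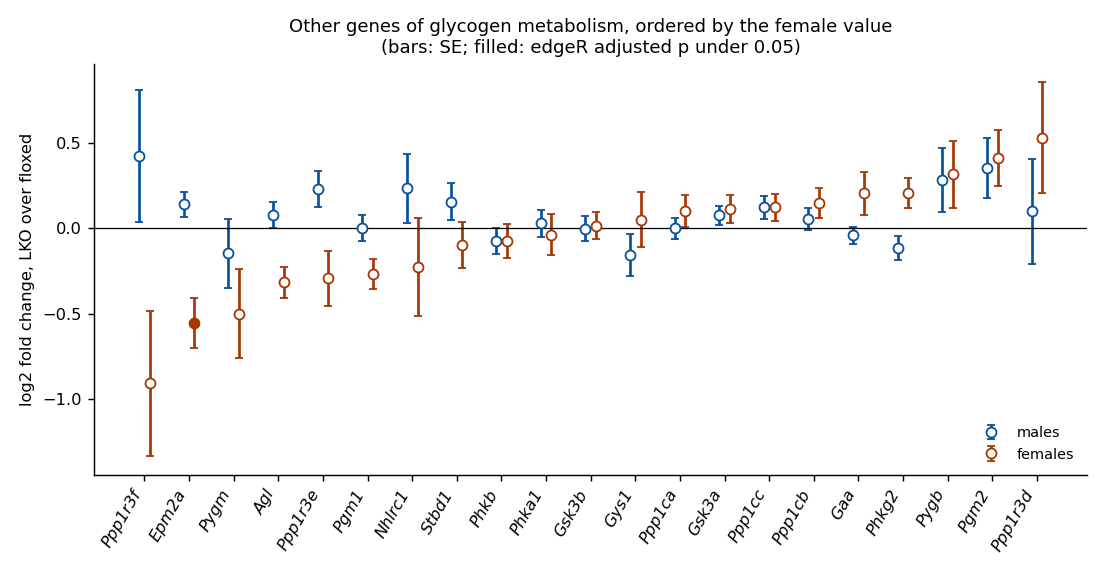
Log2 difference, LKO over floxed, of the 21 further glycogen genes that were tested, in males and females, with bars of 1 SE and filled points for an edgeR adjusted p under 0.05. The filled point is Epm2a in females, at -0.55.

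Of 14 genes of glucose entry, glucose exit and hormone input, all tested, 1 was lower and 0 higher in each sex, where 0.514% of all genes were called lower in males and 4.85% in females. In both sexes this was Gckr, which encodes the regulatory protein that holds glucokinase inactive in the nucleus. Gckr had 357, 326, 350 and 291 CPM in floxed and 228, 202, 238 and 230 CPM in LKO males, and 255, 317, 324 and 267 CPM in floxed and 106, 124, 179 and 134 CPM in LKO females. No LKO library of either sex reached the lowest floxed library of that sex. The log2 differences were -0.56 (SE 0.08, edgeR adjusted p = 0.00809) in males and -1.10 (SE 0.16, edgeR adjusted p = 0.00626) in females. Both calls held without any 1 of the 8 libraries of the sex, and the male one was lost in the fit of 16 libraries (edgeR adjusted p = 0.0762). For the effect over both sexes 2 of the 14 were called, against 8.55% of 16126 genes tested (4.05% higher, 4.5% lower). Gckr was lower, with a log2 difference of -0.83 (SE 0.09, edgeR adjusted p = 7.06e-05). G6pc was higher, with a log2 difference of 0.71 (SE 0.18, edgeR adjusted p = 0.0211), and was not called in either sex alone.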

How the data were processed

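Liver poly(A) RNA of 16 mice was sequenced from directional libraries, as the labels' protocols state. For each sex the authors deposited a table of gene counts, whole numbers used here unchanged. The submitters' processing notes name mm10 as the build. The aligner, the counting program and its strand setting are not given in the sources used here, so reads of overlapping genes may be shared. The genes overlapping Pygl, Ppp1r3b and Phka2 had 34, 269 and 86 counts in all 16 libraries together. Symbols, positions and exon lengths came from GENCODE M21, and 26 male and 28 female identifiers had none.

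Each sex was fitted alone, and all 16 libraries together for effects over or between the sexes. Genes past filterByExpr (minimum count 10, total 15) were scaled by TMM and tested two-sided in edgeR 4.0.16 (quasi-likelihood F-test; R 4.3.3). Calls needed a p under 0.05 after Benjamini-Hochberg adjustment over all genes tested. The SE was derived from the F statistic. The Gys2 to Pygl ratio had an exact permutation test. Alternatives used DESeq2 1.42.0, limma 3.58.1 and the settings named in the closing section. All 9 genes were named, and of the 2 further lists those called in either sex. G6pc, Prkacb and the further glycogen genes called between the floxed groups fall outside this rule and were named after their values were seen. The procedure was tested on simulated counts.

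The genes and lists were chosen with earlier results of these data known. Replicates are separate mice. Within a group the lowest chi-square per degree of freedom between a pair of libraries was 12.7, so no library was a copy of another.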

Additional observations from a re-analysis of the deposited data

Results flagged for a closer look

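Of the 9 genes and the 21 further glycogen genes tested, 4 passed the test of the difference of the LKO effects between the sexes. Of all 16126 genes tested 4.42% passed, 2.45% with the female difference the lower. Of the 14 genes of glucose entry, glucose exit and hormone input 1 passed, Prkacb. Its difference was -0.31 (edgeR adjusted p = 0.0495), and that of Gckr, -0.54, did not pass (edgeR adjusted p = 0.105). The female log2 difference minus the male one was -0.76 for Gbe1 (edgeR adjusted p = 0.00235), -0.73 for Ugp2 (edgeR adjusted p = 0.0104), -0.75 for Pygl (edgeR adjusted p = 0.0488) and -0.69 for Epm2a (edgeR adjusted p = 0.0270). The calls of Gbe1 and Ugp2 held without any 1 of the 16 libraries. That of Pygl was lost without any 1 of 14 libraries and without male floxed 1 and 2 together (edgeR adjusted p = 0.121). That of Epm2a was lost without any 1 of 4 libraries, at edgeR adjusted p of 0.0520 to 0.0588, and without male floxed 1 and 2 together (0.116).

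Ppp1r3c in male LKO 6 measured 91.8 CPM and lay apart from the other 3 LKO males, which had 22.4 to 33.3 CPM. Its gap to the nearest library, as a share of the range of the group, was above the 95% limit of Dixon's test for 4 libraries. Of 40 groups of libraries tested in this way 1 had such a library, and chance alone gives about 1 in 20. Without LKO 6 the male log2 difference of Ppp1r3c was -1.26 (edgeR adjusted p = 0.137), and over the omission of each male library it ran from -1.26 to -0.28.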

How the results depend on the processing

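Counts of called genes that moved by more than 1.5 times were as follows. In males DESeq2 called 2 of the 9 genes in place of 0. For the further glycogen genes in females, where 1 was called, DESeq2 and the fit of 16 libraries called 3, limma-voom 0, the filter of 1 CPM in 4 libraries 2, omission of female floxed 4 and LKO 7 called 6, and omission of 1 library 0 to 3. For the effect over both sexes, with 2 called, limma-voom called 1, omission of female floxed 4 and LKO 7 called 4, and omission of 1 library 2 to 4. For the difference of the effects, with 3 called, omission of that pair called 5 and of 1 library 2 to 4. For floxed females against floxed males, with 4 called, omission of 1 library left 2 to 4, the 2 being Gbe1 and Ugp2 without male floxed 2. Changes of sign affected only values that were not called. Without male floxed 1 and 2 the difference of the effects was -0.017 for Gyg and -0.31 for Ppp1r3c. Without female floxed 4 and LKO 7 it was -0.22 for Ppp1r3c, and floxed females against males was 0.011 for Phka2. Over the omission of 1 library, the difference of the effects ran from -0.071 to 0.12 for Gyg, from -0.18 to 0.79 for Ppp1r3c and from -0.14 to 0.37 for Gys2, the male difference of Gyg from -0.0100 to 0.18 and the sex difference of Phka2 from -0.071 to 0.0099. The cause of these changes was not tested. Of the single-gene values under an alternative 854 kept sign and call, 47 lost a call, 18 gained one and 20 changed sign. Over all genes, DESeq2 called 518 in males in place of 160, 2415 in females in place of 1433 and 1358 for the difference of the effects in place of 713. The fit of 16 libraries called 97 in males and 2854 in females. Without female floxed 4 and LKO 7 there were 3028 in females, 2902 over both sexes in place of 1379 and 2030 for the difference, and without male floxed 1 and 2 there were 243 for the difference. Omission of 1 library left 69 to 179 in males, 396 to 2300 in females, 788 to 2252 over both sexes and 407 to 1435 for the difference. Another scaling moved the median of all genes by less than 0.01 on the log2 scale.

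The replicate block could be fitted only between the sexes, since the numbers are 1 to 4 in floxed and 5 to 8 in LKO mice. With the block, 2 of the 9 genes, Gbe1 and Ugp2, were called for the difference of the effects, and 468 of all genes in place of 713. Pygl had an edgeR adjusted p of 0.0532 and Epm2a of 0.0626 for this difference. For floxed females against males 3 of the 9 were called, Gbe1, Ppp1r3b and Ugp2, and 2937 of 16126 genes in place of 3698. Over 8 pairs of equal number the correlation of deviations ran from -0.18 to 0.22, and 2 of 8 correlated best with their own number. This check showed no pairing by number, and it cannot tell whether mice of equal number shared a litter or a day. In males Ppp1r3g rests on 12 to 66 counts a library, which limits its precision there.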

Other observations

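Within groups, Gbe1 and Phka2 were among the steadier of the 9 genes and Ppp1r3c and Ppp1r3g the most variable. The SD of Gbe1 was 4.46% to 8.93% of its group mean and that of Phka2 4.12% to 9.02%, against 38.3% to 73.4% for Ppp1r3c and 46.2% to 74.9% for Ppp1r3g. Female LKO 5 had the highest value of all 16 libraries for Gys2 and Ppp1r3g and the lowest for Gbe1, Phka2, Ppp1r3c and Pygl, 6 of the 9 genes. Female LKO 6 had the lowest value for Ppp1r3b and Ugp2.

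Of the 21 further glycogen genes tested, 3 were higher and 2 lower in floxed females than in floxed males. That is a share near the background of all genes (11.3% higher, 11.6% lower), and the genes are named here after their values were seen. Pygb, the brain isoform of phosphorylase, was higher by 0.81 on the log2 scale (edgeR adjusted p = 0.00912), Gaa, the lysosomal acid glucosidase, by 0.43 (edgeR adjusted p = 0.00432), and Ppp1cc, a catalytic subunit of protein phosphatase 1, by 0.35 (edgeR adjusted p = 0.00193). Gsk3b, a kinase that inactivates glycogen synthase, differed by -0.48 (edgeR adjusted p = 0.000311), and Phkg2, the liver catalytic subunit of phosphorylase kinase, by -0.26 (edgeR adjusted p = 0.0260). The first 4 were called without any 1 of the 8 floxed libraries, and Phkg2 was not called without male floxed 2, female floxed 3 or female floxed 4, at edgeR adjusted p up to 0.0780, or without male floxed 1 and 2 together (edgeR adjusted p = 0.112). In these livers Gsk3b measured 41.3 ± 3.28 CPM in floxed males and 29.7 ± 1.45 CPM in floxed females (SD, n = 4 each).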
